A study of Mus musculus with 12 samples.

Results

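Expression in CD8+ T cells stimulated in culture was compared with that in freshly isolated, naive CD8+ T cells, on 4 of the 12 Affymetrix mouse expression arrays of the series. The 4 arrays were chosen by their titles alone: 2 carry the title Stimulated CD8 (activated cells) and 2 the title Fresh CD8 (naive cells), and no measured value entered the choice. Both kinds of cell came from spleens of female C57BL/6 mice, aged 8 to 12 weeks by the labels, and both had been enriched by magnetic removal of other cell types, a step that does not take every other cell away. The activated cells had received a low dose of soluble antibodies against CD3, the signalling part of the T cell receptor, and CD28, its main costimulatory partner, and no source used here states the amount or the length of the stimulation. The naive cells were not cultured. They are called naive as in the study, which describes no sort of naive from memory-type CD8+ cells. Memory-type cells may thus be among them, and their part in the results was not tested. The remaining 8 arrays were 5 cultures of CD8+ cells grown with antibody-coated beads and much interleukin 2 until they carried natural killer (NK) cell markers, called NKT-like CD8+ cells, and 3 cultures of CD4+ cells grown in the same way. Nothing in the labels says that the 2 arrays of a group came from separate mice or cultures, so the tests measure the spread between these samples, which may be technical.

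A naive CD8+ T cell is a small resting cell that recirculates through lymphoid organs and lives on signals from interleukin 7 and self peptides. Engagement of the T cell receptor together with CD28 takes it out of rest: it switches on cytokine and receptor genes, takes up glucose and amino acids, builds ribosomes and membranes, copies its DNA and divides, and it arms itself with granzymes. The genes that hold the resting state, among them the Klf2 programme of recirculation and the interleukin 7 receptor, are known to be shut off over the same time.

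Signals are on the log2 scale, as summarised by the authors with RMA, and each gene is represented by 1 probe set. It is the one with the highest mean among those not marked for cross-hybridisation, or among the marked ones where no other existed. A gene was called higher or lower where the Storey q-value of a limma fit to all 12 arrays was 0.01 or less and both activated arrays lay on the same side of both naive arrays. With 2 arrays against 2 an exact permutation test could not go below a two-sided p of 0.333, so the calls rest on a spread that all groups share. A call is said here to hold where it also passed in each fit that left out 1 of the 4 activated and naive arrays, and the small number of arrays limits the precision of all values. Fold changes of genes near the array's background understate the change and depend on the background correction, and probe sets of gene families with near-identical members (antibody, MHC, killer cell receptor, Ifi200 and Ifit genes) may bind more than 1 of them.

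The labelled cell type was checked first. Cd8a, which encodes the CD8 alpha chain, had signals of 10.56 and 10.05 in the activated arrays and 11.72 and 11.06 in the naive arrays, and Cd8b1, the beta chain, had 11.57 and 11.06 in activated against 12.72 and 10.71 in naive cells. Cd4 stood near background, at 6.55 and 7.20 in activated and 7.19 and 7.09 in naive arrays. None of the 9 CD8 T cell markers was called in either direction. The arrays differed in technical measures too. The SD of all signals was 2.004 and 1.799 in the activated arrays and 1.832 and 1.782 in the naive ones, and the actin control's 3′ signal exceeded its 5′ signal by 0.38 and 0.62 in activated arrays and by 0.329 and 1.352 in naive arrays, so that naive replicate 2 stood apart in this measure of RNA integrity. The same difference for the GAPDH control was 1.308 and 1.544 in activated arrays and 2.007 and 2.212 in naive arrays, which were the highest of all 12, so that by this measure the groups themselves differed. Of the 791 genes called higher, 781 (98.7%) had more signal in activated replicate 1 than in replicate 2, against 50.8% of all genes. Their median difference from the naive mean was 1.99 in replicate 1 and 1.40 in replicate 2. The part of these technical differences in the results was not tested, and gene groups are given with their counts in the fits without activated replicate 1, activated replicate 2, naive replicate 1 and naive replicate 2, always in this order and called the left-out counts.

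Of 18193 genes, 791 (4.35%) were called higher in activated than in naive cells and 488 (2.68%) lower. Among them, 39 rose and 35 fell by 10-fold or more. The call held for 96 of the higher and 113 of the lower genes. The median difference over all genes was -0.05 on the log2 scale. At the level of the 45037 probe sets, 1397 were higher and 1172 lower. Each of the 4 arrays moved these counts: the fit without activated replicate 1 called 250 higher and 661 lower probe sets, that without activated replicate 2 called 2374 and 1529, that without naive replicate 1 called 637 and 483, and that without naive replicate 2 called 218 and 408. The groups did not overlap for 44.4% of all probe sets, so separation of the 4 arrays alone is common here and the q-value carries the call.

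**Figure D1:**
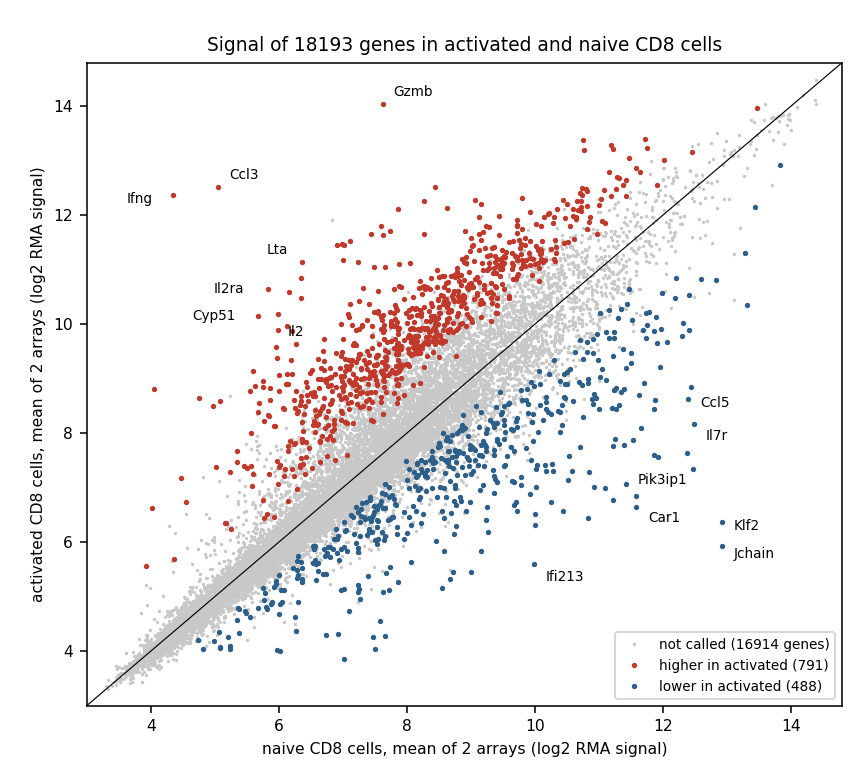
Each point is 1 of 18193 genes, with the mean log2 RMA signal of the 2 naive CD8+ arrays on the x axis and that of the 2 activated CD8+ arrays on the y axis; red points were called higher and blue points lower in activated cells, grey points were not called, and the line marks equal signal. The 791 higher genes lie above the line and the 488 lower genes below it, with Ccl3, Ifng and Gzmb farthest above and Klf2 and Jchain farthest below.

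The genes with the largest increases among calls that held were effector and growth genes. Ccl3, a chemokine that draws monocytes and T cells, had signals of 12.61 and 12.44 in activated cells and 4.83 and 5.26 in naive cells, a 178-fold difference (log2 difference 7.47 ± 0.97 SE, q = 0.00071). Gzmb, encoding the protease granzyme B of cytotoxic granules, reached 14.06 and 14.04 in activated cells, against 8.10 and 7.17 in naive cells (85.6-fold, 6.42 ± 0.38 SE, q = 2.8e-06). In both genes the activated arrays differed little from each other and lay far above the naive ones. Il2ra, the high-affinity chain of the interleukin 2 receptor, was 28.1-fold higher (10.87 and 10.42 in activated, 5.73 and 5.94 in naive arrays, q = 5.9e-06). Lta, encoding the cytokine lymphotoxin alpha, was 27.8-fold higher (11.37 and 10.93 against 6.41 and 6.30, q = 3.7e-05), and Tnfsf11, the TNF family ligand RANKL, 27.0-fold (9.10 and 8.52 against 4.19 and 3.92, q = 0.00064). The groups were well separated in these genes too. The other genes of this set rose 18.2- to 23.3-fold: Hivep3, a zinc finger factor, Egln3 and Bnip3, both known hypoxia-response genes, Nrn1, a membrane-anchored protein named for its role in neurons, Hk2, Cyp51 and Idi1 of metabolism, the surface protein gene Cd200, and the transcription factors Irf8 and Irf4. For Hivep3 and Tnfsf11 the call rested on a single probe set of several: none of the 4 other Hivep3 probe sets passed (folds of 0.863 to 1.35), and the other Tnfsf11 probe set gave 2.93-fold at q = 0.023. Of the 100 genes chosen for naming that were called and had several probe sets, 62 had another probe set called the same way and none had one called the other way.

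**Figure D2:**
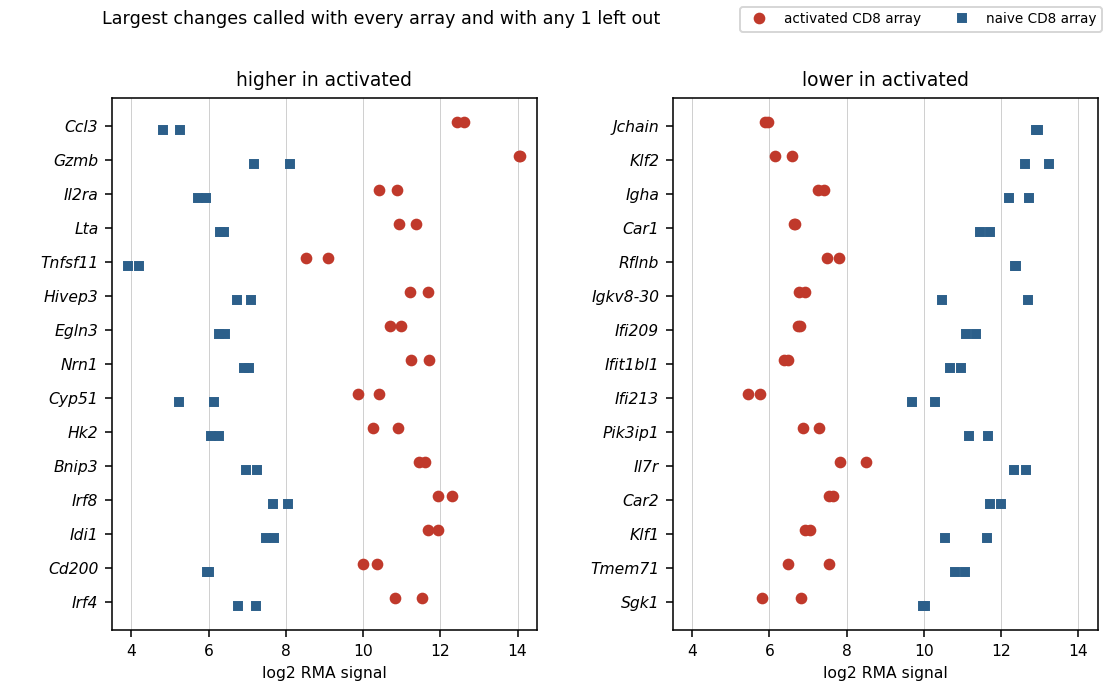
Log2 RMA signal (x axis) in each activated CD8+ array (red circles) and each naive CD8+ array (blue squares) for the 15 genes with the largest increase (left panel) and the 15 with the largest decrease (right panel) among calls that held with any 1 array left out. In every row the 2 groups are separate, as for Ccl3 with 12.61 and 12.44 in activated and 4.83 and 5.26 in naive arrays.

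Gene groups were then read one by one against these shares of all genes. The lists were chosen with earlier results of these data known, and all genes include many of low signal. The shares are thus a reference and not a test. Among 38 lists of pathways and functions, those of division, sterol synthesis and growth had the highest medians and the naive-state list the lowest.

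**Figure D3:**
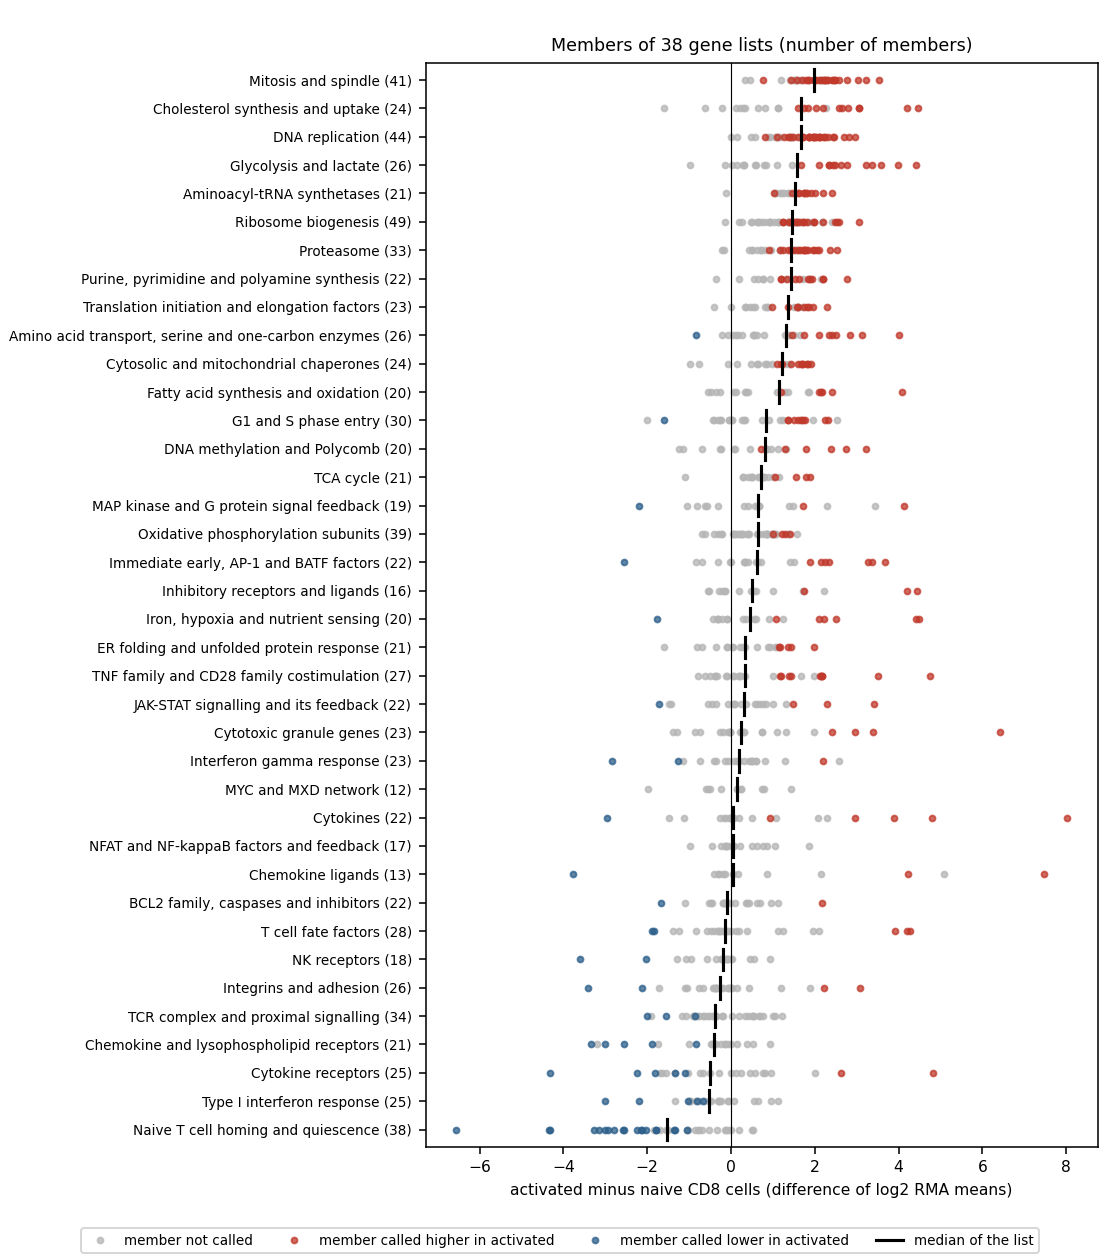
Difference of mean log2 RMA signal, activated minus naive CD8+ cells (x axis), for every member of 38 gene lists (rows, number of members in parentheses), with members called higher in red, called lower in blue and not called in grey; the black bar is the median of the list. Mitosis genes lead with a median of 1.98, and naive-state genes close the order with a median of -1.54.

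Of 22 cytokine genes measured, 5 rose (Ifng, Lta, Il2, Lif and Tnf), 1 fell (Ltb), and the list median was 0.06. Il2, the main T cell growth factor, had 10.07 and 9.70 in activated cells and 5.90 and 6.08 in naive cells (14.9-fold, q = 1.9e-07), and its call held. Ifng, encoding interferon gamma, gave the largest fold of all called genes, 259-fold, with 12.45 and 12.28 in activated cells against 4.35 in both naive arrays, at q = 0.0059. The call was lost whichever of the 4 arrays was left out. In the other groups, which share the fit's spread, the SD of Ifng was 1.80 in NKT-like (n = 5) and 2.74 in CD4+ cells (n = 3). Lif, leukemia inhibitory factor, rose 7.77-fold and its call held, and Tnf rose 1.92-fold (q = 0.0034, lost without activated replicate 1 or either naive array); both are named after their values were seen. Ltb, lymphotoxin beta, went against the rest: 10.61 and 10.09 in activated cells, against 13.28 and 13.35 in naive cells (7.80-fold lower, q = 0.0091), a call lost whichever of the 4 arrays was left out. The left-out counts of cytokine genes were 3, 4, 3 and 3 higher and 0 each lower. Il10 was not called (6.41 and 6.17 in activated, 5.20 and 5.21 in naive arrays) and was also looked at after its values were known.

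The Il2 promoter is shown because Il2 had the smallest q of the called cytokine genes and its control through the factor NFAT is textbook knowledge. The line gives the 250 bases before the RefSeq start (GRCm38.p6, chr3:37125955-37126204, minus strand), 5′ to 3′, with the core that NFAT binds, GGAAA or its reverse complement on either strand, in capitals.
Il2: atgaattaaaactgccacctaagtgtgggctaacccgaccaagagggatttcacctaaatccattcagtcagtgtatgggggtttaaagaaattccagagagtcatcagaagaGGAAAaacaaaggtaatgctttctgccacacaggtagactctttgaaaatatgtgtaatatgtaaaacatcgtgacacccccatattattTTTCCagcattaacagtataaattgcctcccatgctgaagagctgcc
The core occurs in this window 2 times, but 55.6% of 32851 mouse promoter windows of the same length contain it at least once, so its presence is not particular to Il2.

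Among chemokine genes, Ccl3 and Ccl4 rose and Ccl5 fell, out of 13 measured. Ccl4, like Ccl3 an inflammatory chemokine, had 11.95 and 11.36 in activated cells against 7.32 and 7.55 in naive cells (18.7-fold, q = 0.0053); that call did not hold without activated replicate 1 or either naive array. Ccl5, a chemokine that memory-type CD8+ T cells store as mRNA, ran the other way: 8.86 and 8.39 in activated cells and 12.59 and 12.21 in naive cells, a 13.6-fold decrease at q = 0.0014 that did not hold with either naive array left out. Xcl1, lymphotactin, had signals of 12.02 and 11.82 in activated and 7.06 and 6.60 in naive arrays but missed the threshold at q = 0.015. It is named after its values were seen. The called chemokine genes thus moved in both directions, and the left-out counts were 1, 2, 1 and 1 higher and 1, 1, 0 and 0 lower.

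Cytokine receptor genes moved in both directions. Besides Il2ra, Il12rb2, the inducible chain of the interleukin 12 receptor, rose 6.17-fold (9.41 and 8.90 in activated, 6.63 and 6.42 in naive cells, q = 0.0004). Il7r, the interleukin 7 receptor chain, was 20.0-fold lower (8.50 and 7.82 in activated cells, against 12.33 and 12.65 in naive cells, q = 2.9e-05), and its other probe set was called lower as well. Tgfbr2, which carries the inhibitory signal of TGF-beta, fell 4.76-fold (10.02 and 9.30 against 12.05 and 11.78, q = 0.00035), with its other probe sets at 0.943- and 0.447-fold and not called. These calls held. In total 2 of 25 cytokine receptor genes rose and 5 fell, with left-out counts of 2, 3, 2 and 2 higher and 3, 4, 3 and 5 lower. Of 22 JAK-STAT genes, 3 rose and 1 fell: the feedback inhibitors Socs2 (10.6-fold) and Cish (4.93-fold), both classical targets of Stat5, with calls that held, Stat5a itself (2.78-fold, lost without activated replicate 1 or naive replicate 2), and Jak1, which fell 3.27-fold (lost without activated replicate 2 or naive replicate 1). JAK-STAT left-out counts were 2, 4, 3 and 2 higher and 1, 0, 0 and 1 lower. Of the other Socs2 probe sets, 1 was called higher (27.8-fold), and those at 0.971-, 0.892-, 0.82- and 1.15-fold were not called. Il2rb, the shared beta chain, was not called (1.94-fold, q = 0.15).

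Costimulatory genes that were called all rose: 10 of 27 TNF and CD28 family genes rose and none fell. Tnfrsf9, encoding 4-1BB, had 11.01 and 10.89 in activated cells, against 8.71 and 8.86 in naive cells (4.48-fold, q = 0.00033), and its call held, as did those of Tnfsf11 and, named after its values were seen, the adhesion receptor gene Slamf1 (4.35-fold). Tnfrsf4, encoding OX40, rose 11.3-fold (12.41 and 11.85 against 8.58 and 8.67, q = 0.0013) and Icos 4.51-fold (q = 0.0064), but the first was lost without activated replicate 1 or naive replicate 2 and the second whichever of the 4 arrays was left out. The left-out counts were 3, 9, 4 and 3. The other Tnfrsf9 probe sets gave 12.8-fold, called higher, and 0.982-fold, not called. Cd28 itself was not called (11.09 and 10.67 in activated, 9.93 and 9.83 in naive cells, q = 0.056). Among 16 inhibitory receptors and ligands 3 rose and none fell (left-out counts 1, 3, 1 and 1). Cd200, ligand of an inhibitory myeloid receptor, had 10.37 and 10.01 in activated cells against 5.97 and 6.00 in naive cells (18.4-fold, q = 0.0001) and held. Ctla4, the inhibitory counterpart of CD28, rose 21.5-fold (11.66 and 11.25 against 6.94 and 7.10, q = 0.0029), and Pdcd1lg2, the PD-1 ligand PD-L2, 3.33-fold (q = 0.0042); both calls were lost without activated replicate 1 or either naive array.

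Among transcription factors, several of the IRF, BATF and NR4A families rose, whereas the first-wave factors Egr1 and Fos were not called. Irf4, which grades the CD8+ response to receptor strength, had 11.53 and 10.84 in activated cells and 7.23 and 6.77 in naive cells (18.2-fold, q = 0.0001). Irf8 had 12.31 and 11.93 in activated cells, against 8.06 and 7.67 in naive cells (19.2-fold, q = 8.5e-05), and Bhlhe40, a repressor induced by receptor signals, rose 15-fold. Batf3, an AP-1 family factor, rose 9.68-fold (10.73 and 10.03 against 6.77 and 7.44, q = 4.4e-05), and Ier3, an early response survival gene, 12.7-fold. All 5 calls held. The nuclear receptor gene Nr4a2 rose 10.3-fold (q = 0.0024), lost without activated replicate 1 or either naive array. Its other probe sets gave 22.6- and 5.54-fold, called higher, and 2.09-, 0.938- and 0.988-fold, not called. Egr1, the prototype immediate early gene, was not called (10.60 and 9.97 in activated, 9.88 and 10.02 in naive cells, q = 0.49), nor was Fos (8.16 and 7.83 in activated, 7.77 and 7.59 in naive cells), which is named after its values were seen. In the immediate early and AP-1 list as a whole 7 of 22 genes rose and 1 fell, Ier5 (5.90-fold lower, lost with either naive array left out); the left-out counts were 3, 7, 3 and 3 higher and 1, 1, 0 and 0 lower. None of the 17 NFAT and NF-kappaB genes was called (left-out counts 0, 1, 0 and 0 higher), and Nfkbia and Rela, the brightest pair of this list, had folds of 0.84 and 1.03. Myc was not called either (12.04 and 11.51 in activated, 10.31 and 10.38 in naive cells, 2.69-fold, q = 0.032), nor was any of the other 11 genes of its network. Of 28 T cell fate factors 3 rose, Irf4, Irf8 and Bhlhe40, and 2, Ets1 (3.69-fold) and Myb (3.56-fold), both active in resting T cells, fell (left-out counts 3 each higher and 2, 2, 0 and 1 lower); Ets1 was lost without naive replicate 1 and Myb with either naive array left out.

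Of 19 genes of MAP kinase and G protein signal feedback 2 rose, 1 fell and 16 were not called, with left-out counts of 1, 2, 1 and 1 higher and 0 each lower. Spry1, an inhibitor of receptor signalling to Ras, rose 3.29-fold (9.18 and 8.82 in activated, 7.14 and 7.43 in naive cells, q = 0.00017), and its call held. Rgs1, which dampens chemokine receptor signals, rose 17.6-fold (10.64 and 10.34 against 6.28 and 6.42, q = 0.0015), and Rgs10, of the same family, fell 4.60-fold (q = 0.0096); the Rgs1 call was lost without activated replicate 1 or either naive array, that of Rgs10 whichever of the 4 arrays was left out. In the T cell receptor list none of 34 genes rose and 3 fell: Dgka, a kinase that removes diacylglycerol (10.08 and 9.40 in activated, 12.21 and 11.28 in naive cells, 4.02-fold lower, q = 0.0023), Prkcq, the protein kinase C of the synapse (2.93-fold lower, q = 0.0014), and Trat1, an adaptor of the receptor (1.81-fold lower). None of the 3 calls held, and the left-out counts were 2, 2, 1 and 1. Cd3d showed no call, with 11.80 and 11.36 in activated and 12.49 and 11.81 in naive arrays.

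Of 23 cytotoxic granule genes, 4 rose and none fell, with left-out counts of 2, 5, 2 and 2. Besides Gzmb they were Stx11, a syntaxin of granule release (9.39 and 9.01 in activated, 6.43 and 7.17 in naive cells, 5.27-fold, q = 0.0002, held, with another probe set at 1.19-fold and not called), and the protease inhibitors Serpinb6b (10.5-fold) and Serpinb9 (7.76-fold), the second of which protects cells from granzyme B; the serpin calls were lost without activated replicate 1 or either naive array. Srgn, the granule proteoglycan, was bright in both groups and not called (12.68 and 12.37 in activated, 12.62 and 12.50 in naive cells). Perforin (Prf1) was not called, with 8.44 and 7.84 in activated and 7.73 and 7.05 in naive cells, nor was Gzma; both were looked at after their values were seen. Of 18 NK receptor genes 2 fell, Klrd1, the CD94 chain (12.2-fold, 8.26 and 7.32 in activated against 11.35 and 11.45 in naive cells, q = 0.0085, lost whichever of the 4 arrays was left out), and the adaptor gene Hcst (4.04-fold, held), with left-out counts of 1 each.

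Most DNA replication genes rose: 28 of 44 were called higher, none lower, and all 44 had a positive difference (median 1.66). Rrm2, the regulated subunit of the ribonucleotide reductase that makes deoxynucleotides, had 10.89 and 10.52 in activated cells and 7.50 and 8.27 in naive cells (7.06-fold, q = 0.00053). Mcm4, part of the replicative helicase (3.30-fold, q = 0.00055), and Lig1, which joins Okazaki fragments (3.66-fold), also held and are named after their values were seen. The clamp loader genes Rfc3 and Rfc4 rose 7.84- and 6.43-fold and Cdc6, which loads the helicase, 5.45-fold, all lost without activated replicate 1 or naive replicate 2 and Cdc6 also without naive replicate 1. Pcna, the sliding clamp, was already bright in naive cells (13.36 and 13.11 in activated, 11.97 and 11.53 in naive arrays, 2.79-fold, q = 0.00083, lost without naive replicate 2). The left-out counts were 5, 32, 16 and 4. The direction was thus shared by every member, whereas the number of calls fell most without activated replicate 1 or naive replicate 2.

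Mitosis genes gave the highest median of all lists, 1.98, with 26 of 41 called higher, none lower and all 41 differences positive. Aurkb, a kinase of chromosome segregation, was the 1 gene whose call held (10.55 and 9.89 in activated, 7.64 and 7.82 in naive cells, 5.62-fold, q = 0.00081; named after its values were seen). The kinase gene Melk rose 11.5-fold (9.11 and 8.08 against 5.02 and 5.13, q = 0.0012), the kinesin gene Kif20a 9.29-fold, the checkpoint kinase gene Bub1 8.14-fold and Tpx2, a spindle assembly factor, 6.79-fold. These calls were lost without activated replicate 1 or naive replicate 2, and those of Kif20a and Bub1 also without naive replicate 1. The left-out counts were 1, 28, 6 and 1. The sequence TTTGAA, the core of the cell cycle homology region, was present on either strand in 34.1% of the 41 promoter windows of 36 matched list members, against 16.0% of all windows. The 8 motifs were searched in several lists, and only some pairs of motif and list are given here. The share thus describes this list and not the change, and the difference was not tested.

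Of 30 genes of the G1 phase and S phase entry, 9 rose and 1 fell. Cdk4, the kinase partner of D-type cyclins, rose 4.95-fold (q = 0.0041, lost without activated replicate 1 or naive replicate 2). The cell cycle inhibitors moved in opposite directions: Cdkn1a, encoding p21, had 9.98 and 9.75 in activated cells and 7.67 and 7.59 in naive cells (4.71-fold higher, q = 0.00041, held, with another probe set at 1.53-fold and not called), and Cdkn1b, encoding p27, which keeps resting cells out of cycle, had 7.21 and 6.77 in activated and 8.33 and 8.84 in naive cells (3.02-fold lower, q = 0.0063, lost whichever of the 4 arrays was left out). The left-out counts of this list were 2, 10, 4 and 4 higher and 1, 0, 0 and 0 lower. Among 20 DNA methylation and Polycomb genes 6 rose (left-out counts 4, 9, 4 and 4), and 4 of these calls held: Hells, a chromatin remodeller (9.35-fold, 11.26 and 10.94 in activated, 7.61 and 8.14 in naive cells), Uhrf1, which guides methylation of new DNA strands (6.67-fold), Ezh2, the methyltransferase of Polycomb (5.23-fold), and Kdm2b, a histone demethylase (2.43-fold, named after its values were seen).

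Of 26 genes of glycolysis and lactate handling, 13 rose and none fell, with a median of 1.56. Hk2, the hexokinase that traps glucose, had 10.90 and 10.27 in activated cells and 6.27 and 6.06 in naive cells (21.4-fold, q = 0.00017). Tpi1, triose phosphate isomerase, had 12.47 and 12.06 in activated cells, against 8.72 and 7.83 in naive cells (15.9-fold, q = 2.2e-05), and Pgk1, the first ATP-producing step, had 13.46 and 13.29 against 11.05 and 10.46 (6.13-fold, q = 1.1e-05). Ldha, which makes lactate, rose 5.38-fold (q = 0.00031). These calls held. The glucose transporter gene Slc2a1 rose 11.9-fold (11.18 and 10.93 against 7.61 and 7.35, lost without naive replicate 2) and Pkm, pyruvate kinase, 10.4-fold (lost without activated replicate 1 or naive replicate 2). Left-out counts of this list were 6, 14, 12 and 5.

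Some genes known to respond to low oxygen rose too. Bnip3, a mitochondrial protein of autophagy, had 11.60 and 11.46 in activated cells and 7.25 and 6.97 in naive cells (21.4-fold, q = 9e-06), and Egln3, a prolyl hydroxylase that marks HIF-1 for destruction, had 10.99 and 10.69 against 6.27 and 6.42 (22.5-fold, q = 0.00033); both calls held. Hif1a, the factor itself, was not called (11.44 and 11.34 in activated, 10.19 and 10.10 in naive cells, 2.37-fold, q = 0.016). The transferrin receptor gene Tfrc, for iron uptake, rose 5.69-fold (lost without activated replicate 1 or naive replicate 1), and Fth1, the ferritin heavy chain that stores iron, fell 3.41-fold (11.09 and 10.57 against 12.39 and 12.81, lost without naive replicate 2). In the list of 20 iron, hypoxia and nutrient genes 6 rose and 1 fell, and the left-out counts were 2, 6, 3 and 4 higher and 1, 1, 1 and 0 lower.

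The core sequence that HIF-1 binds, ACGTG, was searched on both strands of the 250 bases before the start; it lies within the E-box CACGTG, so the 2 motifs overlap. It was present in 9 of 18 promoter windows of the 13 called glycolysis genes (50%) and in 37.8% of the windows of all 25 matched list members, against 16.6% of all windows. This pair of motif and list too is 1 of several searched, and the differences between these shares were not tested. The windows of Hk2 (chr6:82774455-82774704, minus strand), Pgk1 (chrX:106186850-106187099, plus strand) and Bnip3 (chr7:138909507-138909756, minus strand; all GRCm38.p6) are given to show where the core lies in 3 genes whose increases held, with each match in capitals.
Hk2: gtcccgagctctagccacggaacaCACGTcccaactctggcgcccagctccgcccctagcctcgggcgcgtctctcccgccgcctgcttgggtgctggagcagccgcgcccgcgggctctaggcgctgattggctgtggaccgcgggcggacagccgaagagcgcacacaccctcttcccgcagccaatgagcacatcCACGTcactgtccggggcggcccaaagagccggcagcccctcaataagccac
Pgk1: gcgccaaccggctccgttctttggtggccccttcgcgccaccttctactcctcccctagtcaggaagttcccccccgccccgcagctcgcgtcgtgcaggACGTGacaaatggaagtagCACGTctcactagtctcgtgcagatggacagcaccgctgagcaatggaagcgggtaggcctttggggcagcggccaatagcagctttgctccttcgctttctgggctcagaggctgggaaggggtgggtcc
Bnip3: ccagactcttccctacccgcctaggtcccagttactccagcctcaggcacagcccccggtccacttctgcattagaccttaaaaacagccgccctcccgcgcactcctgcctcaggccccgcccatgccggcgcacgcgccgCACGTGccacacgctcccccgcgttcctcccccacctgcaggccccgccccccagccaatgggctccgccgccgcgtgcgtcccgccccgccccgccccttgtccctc
Each window holds 2 matches, in Bnip3 both strands of 1 E-box. A match describes the sequence and is not evidence of binding.

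Lipid synthesis genes rose in part: 12 of 24 cholesterol genes and 6 of 20 fatty acid genes, with none lower in either list. Cyp51, lanosterol demethylase, had 10.41 and 9.88 in activated cells and 6.13 and 5.23 in naive cells (22.2-fold, q = 0.00012), and Idi1, which makes an isoprene building block, had 11.93 and 11.68 against 7.50 and 7.70 (18.4-fold, q = 7.2e-05). Both calls held, and another probe set of each gene was called higher. Sqle, squalene epoxidase (8.35-fold), and Msmo1, a sterol oxidase (8.27-fold), were lost without activated replicate 1 or naive replicate 2. Scd2, which puts double bonds into fatty acids, had 12.64 and 12.39 in activated cells and 8.92 and 7.95 in naive cells (16.9-fold, q = 1.1e-05), and held; its relative Scd1 rose 5.31-fold, and the synthase Fasn and carboxylase Acaca 4.46- and 4.42-fold, all lost without activated replicate 1 or naive replicate 2 and Scd1 also without naive replicate 1. The left-out counts were 5, 14, 9 and 3 for cholesterol genes and 2, 8, 4 and 2 for fatty acid genes. The sterol response element TCACNCCAC occurred in 1 of the 26 windows of 19 matched cholesterol genes (3.85%), against 1.05% of all windows.

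Of 26 genes of amino acid transport and of serine and one-carbon metabolism, 9 rose and 1 fell (left-out counts 3, 11, 7 and 3 higher and 0, 1, 0 and 0 lower). Psat1, in the path from glycolysis to serine, had 11.86 and 11.40 in activated cells and 8.05 and 7.21 in naive cells (16.1-fold, q = 7e-06), Psph, the next enzyme, rose 8.72-fold, and Mthfd2, a mitochondrial folate enzyme that embryonic and dividing cells use, 7.14-fold (12.13 and 11.79 against 9.13 and 9.12, q = 0.0001). These calls held. Slc7a11, the cystine transporter, was the exception, at 4.87 and 5.02 in activated and 5.83 and 5.72 in naive arrays (1.78-fold lower, q = 0.0051); both levels lay near background and the call did not hold without activated replicate 1 or either naive array. Of the genes for purines, pyrimidines and polyamines, 11 of 22 rose, led by Ppat, the first step of purine synthesis (6.83-fold, lost without activated replicate 1 or naive replicate 2), with Gmps (4.59-fold, its 2 other probe sets at 1.24 and 1.25 and not called) and Odc1, the first step of polyamine synthesis (3.11-fold), holding. The left-out counts of this list were 3, 11, 5 and 3.

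Genes for the making, folding and removal of proteins rose in large shares. Of 49 ribosome biogenesis genes 17 rose, of 23 translation factors 9, of 21 aminoacyl-tRNA synthetases 12, of 33 proteasome genes 20 and of 24 chaperone genes 11, and none of these lists had a gene that fell. Their medians lay between 1.21 and 1.52. Nhp2, a protein of small nucleolar particles, had 11.38 and 10.85 in activated cells and 9.02 and 7.09 in naive cells (8.33-fold, q = 0.0045), and Nop58, of another class of these particles, rose 5.97-fold (11.12 and 10.45 against 8.79 and 7.63). Iars, isoleucyl-tRNA synthetase, rose 5.28-fold (10.81 and 10.19 against 8.44 and 7.75), Psmb7, a catalytic proteasome subunit, 5.75-fold (11.93 and 11.37 against 9.91 and 8.35), and Hspd1, the mitochondrial chaperonin, 3.22-fold (13.47 and 13.34 against 11.88 and 11.56). In Nhp2, Nop58, Iars, Psmb7 and Hspd1 the naive signal was lower in replicate 2 than in replicate 1, and none of these calls held. The left-out counts were 0, 23, 9 and 0 for ribosome biogenesis, 2, 13, 7 and 1 for translation factors and 3, 14, 9 and 2 for synthetases. They were 2, 20, 12 and 0 for the proteasome and 1, 10, 8 and 1 for chaperones. The calls that held in these lists were those of Gars (3.09-fold), Hspa4 (3.59-fold, with 3 other probe sets at 1.00 to 1.13 and not called) and, named after their values were seen, Eprs (3.36-fold) and Eif2s2 (2.96-fold). Eef1a1, a translation factor among the brightest genes of these lists, was not called (13.89 and 13.77 in activated, 14.03 and 13.64 in naive arrays, q = 0.62).

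Few genes of mitochondrial energy metabolism were called. Of 21 genes of the citric acid cycle 4 rose, among them Sdhd (3.49-fold) and Dld (3.67-fold), and of 39 subunits of oxidative phosphorylation 4 rose, with medians of 0.71 and 0.64. None of these calls held, and the left-out counts were 0, 5, 2 and 0 for the cycle and 0, 4, 5 and 0 for the subunits. Cox5a and Cox6a1, the brightest pair of subunits, were not called, with folds of 1.08 and 1.06. Of 21 genes of protein folding in the endoplasmic reticulum 5 rose (left-out counts 1, 5, 3 and 1), of which Ero1a, the oxidase that drives disulfide formation and a known hypoxia-response gene, held (10.92 and 10.68 in activated, 8.76 and 8.86 in naive cells, 3.98-fold, q = 0.00032).

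Genes of the naive state fell in large part. Of 38 measured, 19 were called lower and none higher, 35 differences were negative, and the median was -1.54. Klf2, the factor that keeps T cells resting and recirculating, had 6.60 and 6.14 in activated cells, against 13.24 and 12.61 in naive cells (94.0-fold lower, log2 difference -6.56 ± 0.61 SE, q = 8.5e-05). The gene was bright in both naive arrays and dim in both activated ones. S1pr1, the Klf2 target that guides exit from lymphoid organs, had 7.04 and 6.99 in activated and 10.73 and 9.30 in naive cells (7.98-fold lower, q = 0.0019), a call lost without activated replicate 1 or naive replicate 1. Pik3ip1, an inhibitor of PI3 kinase, had 7.29 and 6.86 in activated cells and 11.18 and 11.66 in naive cells (20.3-fold lower, q = 0.00012), and Igfbp4, a binding protein of insulin-like growth factors, had 8.60 and 8.62 against 12.32 and 11.43 (9.60-fold lower, with 5 other probe sets called lower). Lef1, a Wnt pathway factor of naive T cells, fell 4.08-fold (9.74 and 9.21 against 11.53 and 11.47), and Tsc22d3 and Klf3 fell as well, all with calls that held and named after their values were seen. Together with Il7r and Tgfbr2, 10 of the 19 calls held, and the left-out counts were 15, 18, 14 and 14. Sums of red cell and B cell markers were lower in both activated arrays too, and their part in these decreases was not tested. Btg1, an antiproliferative gene, missed the threshold (11.57 and 11.01 in activated, 13.09 and 13.14 in naive cells, q = 0.012), and Ccr7, looked at after its values were seen, showed no separation (10.71 and 9.90 in activated, 10.87 and 8.70 in naive cells).

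Some receptors and adhesion molecules of resting cells were lower as well. Of 21 chemokine and lysophospholipid receptors 5 fell and none rose (left-out counts 1, 5, 3 and 4). Cxcr4, the CXCL12 receptor, had 6.10 and 5.58 in activated cells and 8.90 and 9.43 in naive cells (10.1-fold lower, q = 5.7e-05), and its call held. Ccr9, the gut homing receptor, fell 5.85-fold (4.91 and 5.25 against 8.40 and 6.86, lost without activated replicate 1). Of 26 integrin and adhesion genes 2 rose and 2 fell: Itgb7 (10.7-fold lower, 8.54 and 8.33 against 12.10 and 11.62, lost without activated replicate 1 or either naive array) and its partner Itgae (4.37-fold lower, 6.40 and 6.49 against 8.89 and 8.27, held) fell, and Alcam (8.46-fold) and Anxa2 (4.67-fold) rose, with calls that did not hold. The left-out counts of the adhesion list were 0, 3, 2 and 1 higher and 1, 2, 1 and 1 lower. Of all genes 4.35% were called higher and 2.68% lower, so 2 calls in each direction say little about this list. In the survival list of 22 genes 1 rose and 1 fell, near the shares of all genes, so the list as a whole did not stand out. Bcl2l1, encoding the death inhibitor Bcl-xL, rose 4.50-fold (10.12 and 9.82 against 7.53 and 8.07, q = 0.00024, held). Its 3 other probe sets, at folds of 0.943 to 1.36, were not called. Bbc3, encoding the death inducer Puma, fell 3.20-fold (7.75 and 7.62 against 9.12 and 9.61, q = 0.0081, lost whichever of the 4 arrays was left out). The other 20 genes were not called (left-out counts 1, 2, 1 and 1 higher and 0 each lower). Further large decreases outside the lists were Rflnb, a regulator of actin filaments (26.7-fold, 7.80 and 7.49 in activated, 12.36 and 12.40 in naive cells, q = 1.4e-07), Sgk1, a kinase downstream of PI3 kinase (12.9-fold, 6.83 and 5.81 against 10.03 and 9.98), and Tmem71 (15-fold), all with calls that held.

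Several interferon-inducible genes were lower in activated cells, while Ifng was higher. Of the 15 largest decreases 3 were of this kind: Ifi209 and Ifi213, members of the Ifi200 family of DNA sensors, and Ifit1bl1, of the Ifit family. Ifi213 had 5.76 and 5.45 in activated cells and 10.28 and 9.70 in naive cells (20.9-fold lower, q = 5.9e-06), Ifi209 6.74 and 6.79 against 11.35 and 11.09 (21.9-fold lower, q = 0.00028), and Ifit1bl1 6.48 and 6.39 against 10.97 and 10.68 (21.0-fold lower, q = 1.3e-07). In the type I interferon list 5 of 25 genes fell and none rose, and 20 differences were negative (median -0.53). Rtp4 was 8.00-fold lower (6.50 and 6.86 against 9.39 and 9.96, q = 0.00024) and held, with another probe set at 0.956-fold and not called, whereas Ifit1, which blocks translation of viral RNA, had 5.74 and 5.33 in activated and 7.94 and 7.55 in naive cells (4.61-fold lower, q = 0.0031) and was lost whichever of the 4 arrays was left out. The left-out counts of lower genes were 2, 3, 1 and 2. The interferon gamma list showed no common direction: of 23 genes, Gbp2, an interferon-induced GTPase, rose 4.59-fold (lost without activated replicate 1 or either naive array) and its relative Gbp7 (2.39-fold) and the class I MHC gene H2-D1 (7.09-fold) fell, with a median of 0.18, and neither lower call passed in any fit that left out 1 of the 4 arrays (left-out counts 0, 1, 0 and 0 higher). The other H2-D1 probe sets, at folds of 0.34 to 0.958, were not called. B2m, the class I light chain, was not called either (13.46 and 13.29 in activated, 13.69 and 13.77 in naive arrays).

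The sequence GAAANNGAA, the core of the interferon-stimulated response element, was searched on both strands of the same windows. It was present in 41.7% of the 24 windows of 19 matched type I list members, and in 3 of 4 windows of the called ones, against 7.13% of all windows; the list is one of known interferon targets, so a high share describes the list and not the change. The windows of Ifit1 (chr19:34640639-34640888, plus strand) and Ifi213 (chr1:173599273-173599522, minus strand; GRCm38.p6) are shown with the matches in capitals, since the first belongs to the list and the second to the largest decreases.
Ifit1: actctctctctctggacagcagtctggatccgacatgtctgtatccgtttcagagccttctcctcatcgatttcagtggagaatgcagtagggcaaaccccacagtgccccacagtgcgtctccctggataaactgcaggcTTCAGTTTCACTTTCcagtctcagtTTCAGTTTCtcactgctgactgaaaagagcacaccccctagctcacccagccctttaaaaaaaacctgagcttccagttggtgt
Ifi213: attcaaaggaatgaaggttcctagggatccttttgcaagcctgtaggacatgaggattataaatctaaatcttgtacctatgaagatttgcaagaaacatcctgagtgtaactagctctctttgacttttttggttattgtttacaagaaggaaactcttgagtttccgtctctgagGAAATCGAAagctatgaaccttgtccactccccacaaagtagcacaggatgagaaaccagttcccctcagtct
Ifit1 holds 3 matches, all on the opposite strand and the first pair overlapping, and Ifi213 holds 1.

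Markers of other cell types were lower in activated cells too. In bulk samples, fewer cells of a type and less RNA per cell cannot be told apart. Of 14 red cell precursor markers 8 were called lower and none higher (left-out counts 7, 9, 7 and 7), 7 with calls that held, and the summed linear signal of the list was 1912 and 1858 in the activated arrays and 10127 and 13798 in the naive arrays. Car1, a red cell carbonic anhydrase, had 6.63 and 6.67 in activated cells and 11.46 and 11.71 in naive cells (30.7-fold lower, q = 2e-08), and Klf1, the master factor of red cell development, 6.93 and 7.05 against 10.56 and 11.63 (17.2-fold lower, q = 3.7e-06). Hba-a1, the alpha globin gene itself and named after its values were seen, was near background in all 4 arrays, at 5.30 and 5.36 in activated and 5.41 and 5.50 in naive arrays. Of 17 B cell markers 6 were lower (left-out counts 2, 7, 3 and 5), 2 with calls that held, and the list summed to 3026 and 2457 in activated and 21876 and 16516 in naive arrays. The list median was -0.65 on the log2 scale, and bright genes such as Jchain and Ighm weigh most in a linear sum. Jchain, which joins the subunits of secreted antibodies, gave the largest decrease of all genes, 127-fold, with 5.90 and 5.96 in activated cells and 12.95 and 12.90 in naive cells (q = 7.4e-05). The antibody genes Igha and Igkv8-30 fell 35- and 26.5-fold, whereas Ms4a1, encoding CD20, fell 3.12-fold (6.53 and 7.12 against 8.77 and 8.17). The Ms4a1 call was lost without activated replicate 1 or naive replicate 1. Of 9 MHC class II genes 4 were lower (left-out counts 2, 3, 2 and 2), H2-Ab1 by 8.49-fold (6.40 and 5.97 against 8.62 and 9.92), with sums of 1754 and 1203 in activated and 9324 and 7720 in naive arrays. Only 1 of 20 myeloid markers (Ly86, 3.44-fold, left-out counts 1, 3, 2 and 1) and 2 of 8 dendritic cell markers (Ccr9 and Ly6d, left-out counts 0, 2, 1 and 1) were lower, and none of the NK cell or CD4 T cell markers was called. Ccr9 is also on the chemokine receptor list above. Its decrease is thus counted in both lists, and the cell type it came from was not tested. The sums were 1530 and 1949 in activated and 2178 and 2412 in naive arrays for myeloid markers, and 819 and 1063 in activated and 1459 and 1275 in naive arrays for dendritic cell markers.

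Of the 488 genes called lower, 21 were on these marker lists, Ccr9 among them, as were 4 of the 15 largest decreases, against 1 of the 791 genes called higher (Pf4, a platelet gene, 1.63-fold, lost without activated replicate 1 or either naive array). The lists hold 17 B cell, 9 MHC class II, 14 red cell and 20 myeloid genes. They also hold 8 dendritic cell, 6 platelet, 4 NK cell and 4 CD4 T cell genes. Of all 18193 genes, 2.68% were called lower and 4.35% higher. The antibody genes named above, Igha among them, were also among the 15 largest decreases but were on none of the marker lists. The counts thus cover listed genes only and may understate the share of genes typical of other cell types. The sums of the 6 listed platelet markers were level, at 720 and 781 in activated and 746 and 755 in naive arrays. They say nothing of platelet genes outside the list, and 1 of the 6, Pf4, was itself called higher. The sums of red cell, B cell and MHC class II markers were lower in both activated arrays. Their part in the decreases described above was not tested.

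**Figure D4:**
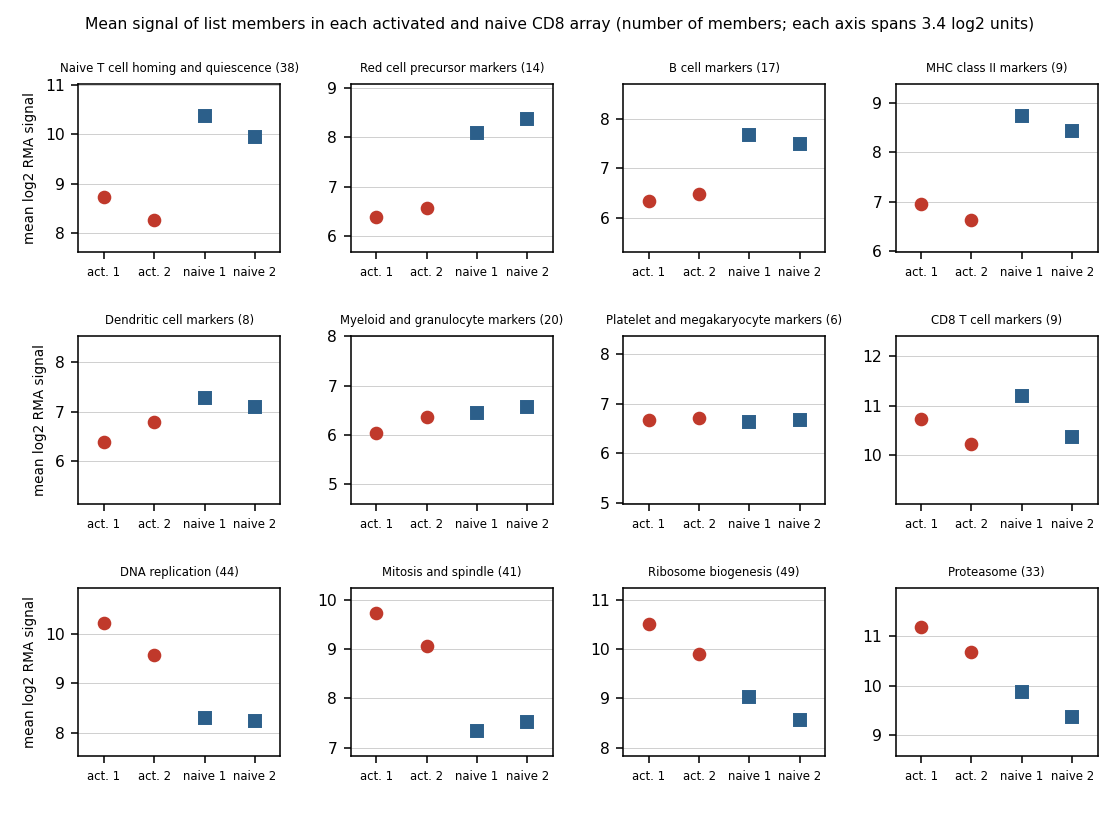
Mean log2 RMA signal of the members of 12 lists in each of the 2 activated (red circles, left) and 2 naive (blue squares, right) CD8+ arrays; every y axis spans the same range and the number of members is in parentheses. Naive-state, red cell, B cell and MHC class II lists lie lower in both activated arrays, platelet markers are level (6.67 and 6.71 in activated, 6.63 and 6.68 in naive arrays), and the growth lists lie higher, with activated replicate 1 above replicate 2.

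The activated cells were lastly set against the 2 other stimulated groups, with the same activated arrays. The fold changes used no naive array, but the q-values came from the fit to all 12 arrays, whose spread includes the naive ones. Against NKT-like CD8+ cells 170 genes (0.934%) were higher in activated cells and 607 (3.34%) lower, and against cultured CD4+ cells 58 (0.319%) were higher and 270 (1.48%) lower. In 16 genes activated cells were higher than all 3 other groups and in 12 lower; the 3 comparisons share the activated arrays, so these counts are not independent, and the genes below are named after their values were seen unless they were introduced above. Il2 was 18.2-fold higher than in NKT-like cells (q = 1.6e-07) and 14.1-fold higher than in cultured CD4+ cells (q = 4.3e-07). Its mean was 9.89 in activated cells, against 5.70 ± 0.16 in NKT-like cells (SD, n = 5), 6.07 ± 0.12 in CD4+ cells (SD, n = 3) and 5.99 in naive cells, so activated cells stood above all other groups. Lta was 7.18-fold higher than in NKT-like and 5.47-fold higher than in CD4+ cells (q = 0.0004 and 0.0031), Spry1 4.43- and 2.17-fold, and Lad1, an anchoring filament protein of skin, 11.1- and 9.50-fold, with 10.2-fold over naive cells. Cd83, a surface marker of activated lymphocytes and dendritic cells, was 8.28-fold higher than in NKT-like, 5.26-fold higher than in CD4+ and 3.51-fold higher than in naive cells, the last call lost without naive replicate 2. The calls against naive cells of Il2, Lta, Spry1, Lad1 and 3 further genes of the 16 held. The 3 further genes were Pcgf5, Rab34 and Slc35d3 (5.67-, 2.73- and 3.1-fold over naive cells). Also among the 16 were Selp, Pdgfb and the platelet gene Pf4 (3.34-, 1.97- and 1.63-fold over naive cells), with calls that did not hold.

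Genes lower in activated cells than in all other groups included Ccl5 and Glipr1. Ccl5 was 16.6-fold below NKT-like, 10.5-fold below CD4+ and 13.6-fold below naive cells. Glipr1 had 7.81 and 7.0 in activated cells, against means of 12.03 ± 0.36 in NKT-like (SD, n = 5) and 11.93 ± 0.13 in CD4+ cells (SD, n = 3) and 9.60 and 9.43 in naive arrays. Its call against naive cells was lost with either naive array left out. The other Glipr1 probe set went the other way against naive cells, at 1.68-fold, and was not called (q = 0.18). Rasal3, a T cell regulator of Ras, was 11.8-fold below naive cells and held, and 6.11- and 5.07-fold below NKT-like and CD4+ cells. Ppp3ca, the catalytic subunit of calcineurin, which activates NFAT, was 2.93-fold below naive cells, a call lost whichever of the 4 arrays was left out, and 4.60- and 5.16-fold below NKT-like and CD4+ cells. Other genes set activated cells apart from 1 culture only. Cd200 was 23.3-fold higher than in NKT-like cells (q = 1.8e-05) but 1.15-fold and not called against CD4+ cells, whereas Irf8 was 10.1-fold higher than in CD4+ cells (q = 0.00046) and 1.33-fold and not called against NKT-like cells. Gzmb, by contrast, was 0.818-fold and 1.42-fold the level of NKT-like and CD4+ cells, with neither difference called. Cdkn1a, higher than in naive cells, was 5.45-fold lower than in NKT-like and 4.09-fold lower than in CD4+ cells, and Vim, an intermediate filament gene that was not called against naive cells, was 9.39- and 6.98-fold lower.

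**Figure D5:**
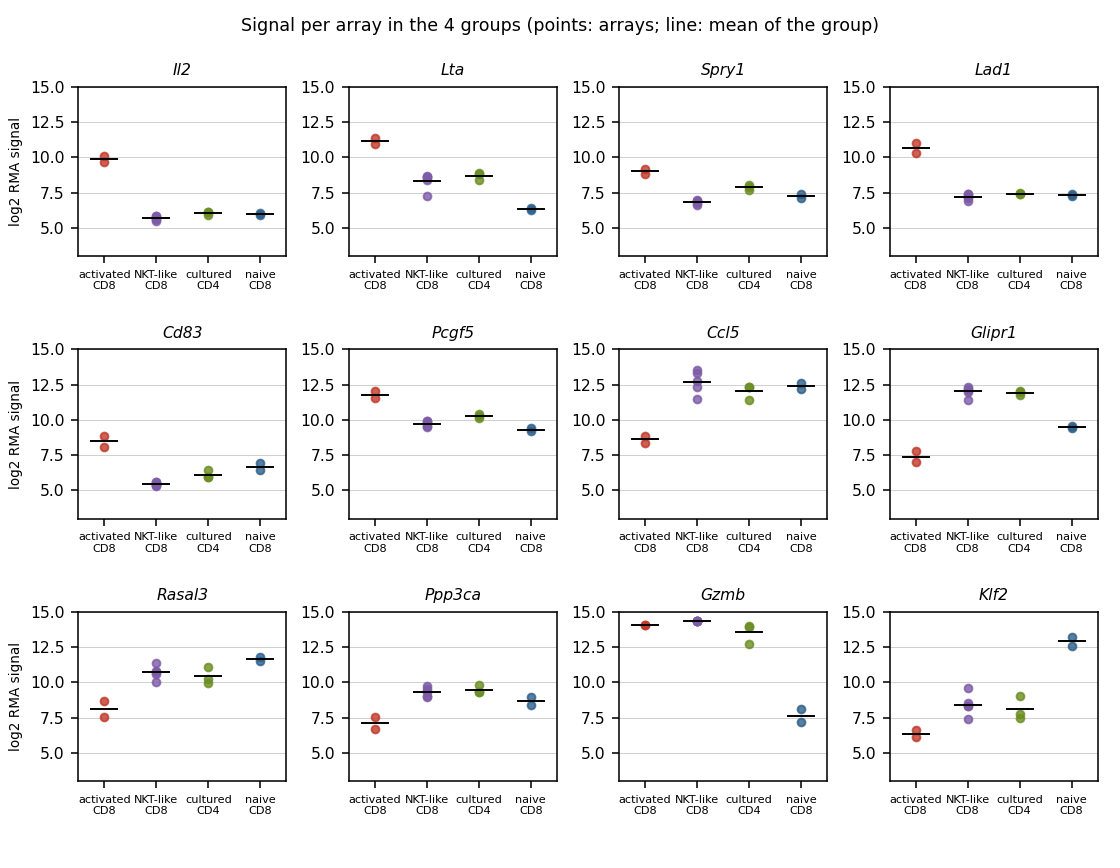
Log2 RMA signal of 12 genes in every array of activated CD8+ (2 arrays), NKT-like CD8+ (5), cultured CD4+ (3) and naive CD8+ cells (2), from left to right in each panel; points are arrays and lines are group means. Il2 stands above the other 3 groups, at a mean of 9.89, and Ccl5 and Glipr1 below them, while Gzmb is high in all stimulated groups and Klf2 high in naive cells.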

How the data were processed

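RNA of 12 samples was hybridised to Affymetrix mouse expression arrays, 1 per sample. The deposited values are log2 signals per probe set that the authors made with RMA (background correction, quantile normalization and a summary over probes; version not given in the sources used here). RMA signals have a floor set by background and do not reach 0. Of 45101 probe sets, 64 controls were left out. The arrays' annotation gave 34945 probe sets 1 gene symbol, 932 several and 9160 none; 162 of 18193 genes kept the array's symbol where it was not found in the RefSeq table.

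limma 3.58.1 (R 4.3.3) was fitted to all 12 arrays with 1 mean per group (8 residual and 3.03 prior degrees of freedom), and Storey q-values were computed over 45037 probe sets (share of true nulls 0.627). A call needed q of 0.01 or less and groups that did not overlap. Each gene took its probe set of highest mean, with probe sets whose suffix marks cross-hybridisation used where no other existed. Genes named were the 15 largest changes in each direction that held without each of the 4 arrays, up to 4 called members and the 2 brightest members of each list, and called members that went against their list. The members and lists were chosen with earlier results of these data known. Of the genes listed, 74 were not matched and are not analysed here. Promoter sequences are from RefSeq (GRCm38.p6), with 32851 windows of 27025 genes, and 8 motifs were searched on both strands. The fit was tested on simulated data. Alternatives left out arrays, used the 4 arrays alone, and changed the adjustment, threshold, variance prior, normalization, signal filter and probe set of a gene.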

Additional observations from a re-analysis of the deposited data

How the results depend on the processing

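No named gene that was called changed sign under any alternative run. The 1397 higher and 1172 lower probe sets became 85 and 94 in a fit of the 4 activated and naive arrays alone, and 3203 and 3075 at a q of 0.05 or less. Quantile normalization of the 12 columns gave 1897 higher and 1840 lower. Leaving out 1 of the 12 arrays gave 218 to 2374 higher and 408 to 1529 lower. The count of called list members, 322 in the fit as reported, was 56 with the 4 arrays alone, 494 at a q of 0.05 or less, and 101 to 358 with 1 array left out (104 without activated replicate 1, 187 without naive replicate 1 and 101 without naive replicate 2). Benjamini-Hochberg adjustment gave 1039 and 882 probe sets and 273 list members. Of the 176 named genes that were called, 56 passed with the 4 arrays alone, 154 with Benjamini-Hochberg adjustment and 157 with each array centred on its median. Averaging all probe sets of each gene gave values but no test, so list counts were not run that way; it moved 54 of the 176 by more than the spread between replicates (1 SD), for example Hivep3 to 0.95 on the log2 scale.

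The titles number the arrays within a group and say nothing of a shared mouse or day, so the numbers were not taken to pair the samples. With the replicate number as a replicate block, 233 probe sets were higher and 271 lower, 110 list members were called, and 85 of the 176 named calls passed. The deviations of replicate 1 from its group mean correlated at r = 0.28 between activated and naive cells over probe sets. The cause of these differences in counts was not tested.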

Other observations

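The values rest on 2 arrays in each group, and leaving out activated replicate 1 or naive replicate 2 took away most calls among replication, mitosis, ribosome biogenesis and proteasome genes. The length and exact dose of the stimulation are not given in the sources used here, so no time can be set beside the levels. Activated cells were cultured and naive cells were not, and culture and stimulation cannot be told apart. Signals of different genes were not compared as amounts of mRNA, since probe sets differ in how strongly they bind. A promoter match was searched in the 250 bases before the start alone.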
